A study of Mus musculus with 16 samples.

Results

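The 10 genes described here are Vegfa, Vegfb, Flt1, Kdr, Nos3, Tek, Cldn5, Pecam1, Pdgfrb and Slc2a1, which encode growth factors, receptors and structural or transport proteins of blood vessels. They were taken by name from a table of 26625 genes and assembled loci, in which each of the 10 has 1 entry, and all 10 were among the 18826 entries with enough counts to be tested. Full-length cDNA from the medial prefrontal cortex (mPFC) of 16 male C57BL/6 mice, 8 to 10 weeks old, was sequenced on the Nanopore platform, and reads were counted per gene. All mice had received an adeno-associated virus in the mPFC. The Ctrl groups carried a control virus, labelled shNC, and the labels call their genotype WT. The Kdm7a-shRNA groups carried pAAV-U6-shRNA (Kdm7a)-CMV-EGFP-WPRE. In it a U6 promoter drives a hairpin against Kdm7a and a CMV promoter drives the green reporter EGFP, neither of them restricted to 1 cell type. For its calcium recordings the paper names the control virus as pAAV-U6-shRNA (NC)-CMV-EGFP-WPRE, which has the same U6 and CMV-EGFP parts. Mice were conditioned for place preference with saline or with morphine at 10 mg/kg, and tissue was taken on day 17, the withdrawal day 7. The Ctrl + Saline group had 3 mice, the Kdm7a-shRNA + Saline group 5, and the morphine groups 4 each. Each library is treated here as 1 mouse, and the sources do not say whether tissue of several animals was pooled.

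Vascular endothelial growth factors are secreted by neurons and glia and bind tyrosine kinase receptors on the endothelial cells that line blood vessels. In the brain these endothelial cells are sealed by tight junctions, are wrapped by pericytes and carry dedicated transporters, and together they form the blood-brain barrier. Kdm7a encodes a demethylase that removes repressive marks from lysines 9 and 27 of histone H3.

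The DNA just upstream of the gene start is shown for Vegfb, Flt1 and Cldn5, the genes with a promoter entry that passed for knockdown under saline, and for Slc2a1, a known target of hypoxia-inducible factors. RefSeq windows on GRCm38.p6 were found for 7 of the 10 genes and not for Nos3, Pecam1 and Pdgfrb. The 250 bases before the RefSeq start are printed 5′ to 3′ on the gene's own strand. For Slc2a1 this start lies inside the GENCODE gene, whose own start at 119108711 falls within the printed window. Capitals mark the core of a hypoxia response element, ACGTG or GCGTG, on either strand.
Vegfb, chr19:6987652-6987901, minus strand: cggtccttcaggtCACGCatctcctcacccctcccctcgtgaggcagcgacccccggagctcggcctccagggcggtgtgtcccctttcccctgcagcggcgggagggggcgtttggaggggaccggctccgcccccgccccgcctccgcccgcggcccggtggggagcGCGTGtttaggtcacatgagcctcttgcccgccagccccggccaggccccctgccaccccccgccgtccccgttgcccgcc
Flt1, chr5:147726012-147726261, minus strand: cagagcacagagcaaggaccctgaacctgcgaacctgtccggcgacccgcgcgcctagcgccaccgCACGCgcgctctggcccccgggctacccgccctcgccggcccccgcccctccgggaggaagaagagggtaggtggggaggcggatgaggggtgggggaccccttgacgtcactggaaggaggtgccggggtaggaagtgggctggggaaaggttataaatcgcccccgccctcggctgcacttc
Cldn5, chr16:18776597-18776846, plus strand: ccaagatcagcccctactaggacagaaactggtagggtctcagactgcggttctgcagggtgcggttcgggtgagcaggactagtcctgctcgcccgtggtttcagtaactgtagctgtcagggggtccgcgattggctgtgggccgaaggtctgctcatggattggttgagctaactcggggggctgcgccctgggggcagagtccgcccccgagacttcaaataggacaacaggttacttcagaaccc
Slc2a1, chr4:119108495-119108744, plus strand: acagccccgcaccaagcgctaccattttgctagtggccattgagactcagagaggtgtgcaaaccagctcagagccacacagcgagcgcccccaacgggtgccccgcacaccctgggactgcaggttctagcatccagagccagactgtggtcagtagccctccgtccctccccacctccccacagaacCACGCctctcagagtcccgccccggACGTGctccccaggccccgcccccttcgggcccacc
Vegfb had 2 matches, at positions -237 and -81 from the start. Slc2a1 also had 2, at -61 and -36, Flt1 had 1 at -184, and Cldn5 had 0. Either core was present in 38.6% of the 32851 windows of this length in the table, so a match is common. The GC box, GGGCGG on either strand, was found 4 times in the Vegfb window, 3 times in Flt1, 2 times in Slc2a1 and 1 time in Cldn5, and 32.7% of all windows held it. The window of Vegfb was 76.4% G and C, that of Flt1 70.4%, that of Slc2a1 66.4% and that of Cldn5 59.6%. No binding was measured in these data, and a match describes the letters only.

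Between 6596991 and 12418112 reads per mouse were counted, and the deepest library was Kdm7a-shRNA + Morphine replicate 3. Values are given as normalized CPM, which is the count scaled to the total of each mouse (CPM) and to a TMM factor. A gene passed a comparison when its adjusted p-value in edgeR's quasi-likelihood test was under 0.05 over all tested genes and its fold change was at least 1.5. The reads were amplified by PCR. Standard errors and p-values come from the fit and measure the spread between libraries, not counting error alone. Kdm7a itself averaged 9.42 normalized CPM in the Ctrl + Saline and 5.55 in the Kdm7a-shRNA + Saline group (log2 fold change -0.76, standard error 0.204, adjusted p = 0.0153). Under morphine it averaged 7.72 and 4.94 (log2 fold change -0.67, standard error 0.206, adjusted p = 0.0506), short of the threshold. The comparisons of knockdown under saline and of morphine in control mice share the Ctrl + Saline mice, and those of knockdown under morphine and of morphine in control mice share the Ctrl + Morphine mice.

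The level of GC-rich against GC-poor transcripts differed between the libraries, and this moved with the groups. Whether it came from the tissue, the RNA or the library preparation was not tested. For each mouse, the median deviation from the gene's mean over all mice was taken for the 20% of known genes with the highest GC content and the 20% with the lowest, and the second was subtracted from the first on the log2 scale. This GC difference was -0.38 in Ctrl + Saline replicate 3, -0.25 in replicate 2 and -0.04 in replicate 1. It ran from -0.03 to 0.12 in the Ctrl + Morphine, from -0.06 to 0.29 in the Kdm7a-shRNA + Saline and from -0.13 to 0.12 in the Kdm7a-shRNA + Morphine mice. Short transcripts against long ones, taken the same way between the shortest and the longest 20%, ran from -0.25 to -0.05 in Ctrl + Saline and from 0.02 to 0.18 in Kdm7a-shRNA + Saline mice, without overlap. The longest annotated transcripts of Vegfb (1281 bases, 62.6% GC) and Cldn5 (1416 bases, 60.5% GC) were among the GC-richest 20% and the shortest 20% of genes. Nos3 (58.2% GC) was among the GC-richest 20%, while Vegfa, Flt1, Kdr and Pecam1 (49.4 to 50.9%) were close to the median of known genes, 49.6%. For the 10 genes, each knockdown result that passed is therefore followed by its value after each library's deviations by GC content and length were taken out. This correction was applied to known genes alone, and that restriction by itself lowered the number of genes that passed. For knockdown under saline 3151 of all tested entries passed, 1419 among known genes alone and 1234 among known genes with the correction. Under morphine these counts were 1448, 446 and 386. The entries tested in these fits were 18826, 14435 and 14151.

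Knockdown of Kdm7a was compared first in mice that had received saline. In the deposited counts, 5 of the 10 genes passed and all 5 were higher in Kdm7a-shRNA + Saline mice, namely Vegfb, Flt1, Nos3, Cldn5 and Pecam1. Of all tested genes 16.7% passed, 7.43% as higher and 9.31% as lower. The median log2 fold change of the 10 genes was 0.65, and that of all tested genes was 0.015. Among known genes alone 2 of the 10 passed (Vegfb and Cldn5), beside 1419 of all 14435 tested. With GC content and length corrected as well, 0 of the 10 passed, beside 1234 of all 14151 tested. In mPFC tissue, a change in the number of vascular cells and a change in RNA per cell cannot be told apart.

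**Figure D1:**
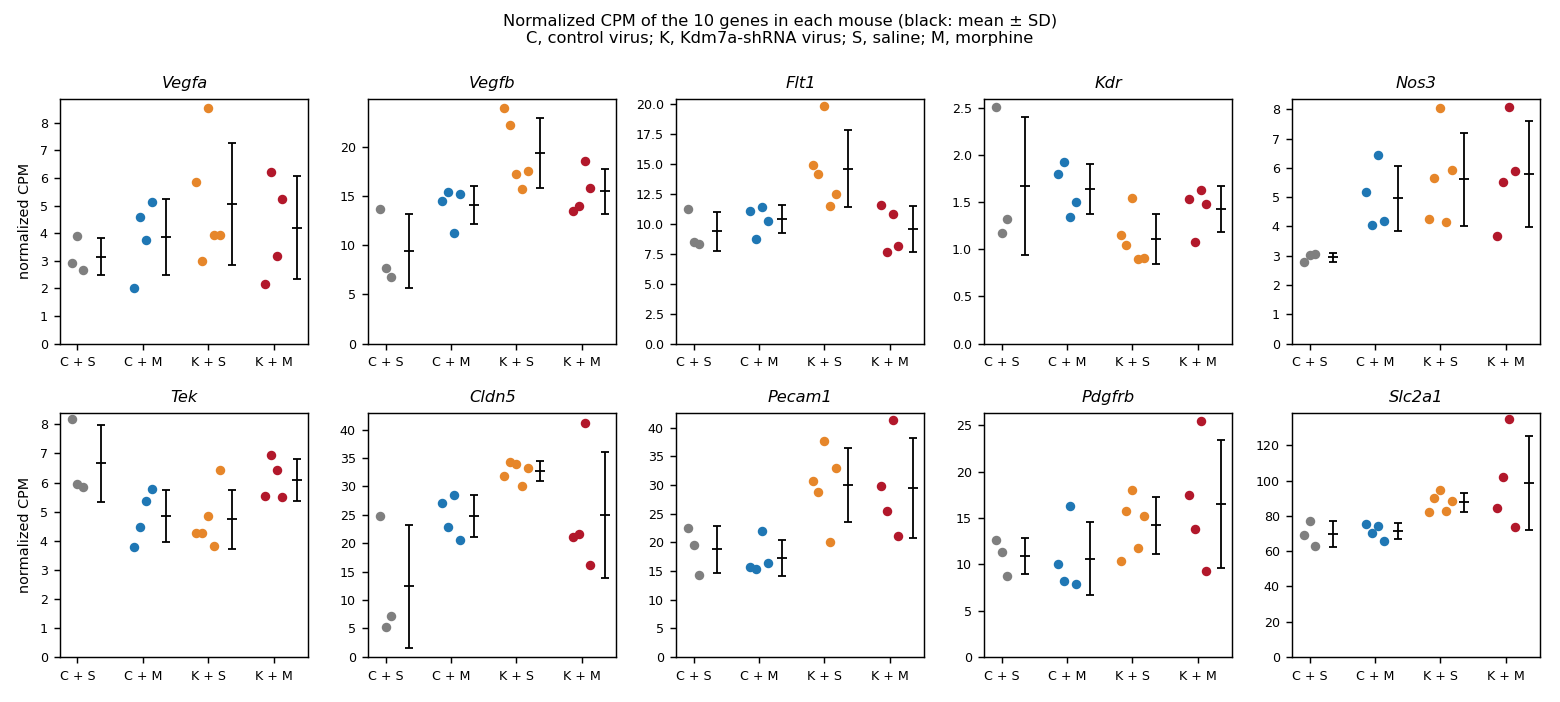
Normalized CPM of each of the 10 genes (vertical axis, from 0) in each mouse, by group (horizontal axis), with 1 point per mouse and the mean ± SD in black; C is control virus, K Kdm7a-shRNA virus, S saline and M morphine. Cldn5 was between 30 and 34.3 in all 5 Kdm7a-shRNA + Saline mice, and was 5.27 and 7.15 in 2 of the 3 Ctrl + Saline mice.

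Vegfb (ENSMUSG00000024962, chromosome 19, 6982473 to 6987651, minus strand of GRCm38) encodes a ligand of the receptor Flt1 with roles in endothelial lipid uptake and survival. Its normalized CPM was 13.7, 7.71 and 6.76 in Ctrl + Saline replicates 1 to 3 and 24, 22.2, 17.3, 15.7 and 17.6 in Kdm7a-shRNA + Saline replicates 1 to 5. Every knockdown mouse was above every control mouse, and replicate 1 was the control nearest to them. Vegfb rose 2.07-fold (log2 fold change 1.05, standard error 0.22, adjusted p = 0.00406), the smallest adjusted p-value among the 10 genes. It passed in all 8 fits that left out 1 mouse of the comparison, with log2 fold changes from 0.84 to 1.38. With GC content and length corrected, the log2 fold change was 0.56 (adjusted p = 0.0346), which is under the fold threshold.

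Vegfa (ENSMUSG00000023951, chromosome 17, 46016993 to 46032369, minus strand) encodes the main angiogenic ligand and varied more between mice. Its counts ran from 14 to 72. In normalized CPM it was 2.91, 3.9 and 2.65 in the Ctrl + Saline mice and 5.86, 3, 8.53, 3.94 and 3.92 in the Kdm7a-shRNA + Saline mice. The groups overlapped, and replicate 3 was the highest of the knockdown mice. The fitted log2 difference was 0.66 (standard error 0.386, adjusted p = 0.239), so that a difference was not shown.

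Flt1 (ENSMUSG00000029648, chromosome 5, 147561604 to 147726011, minus strand) encodes VEGF receptor 1, which binds both Vegfa and Vegfb and, in its soluble form, traps them. The gene-level counts do not separate the soluble from the membrane form. Flt1 was at 11.2, 8.49 and 8.35 normalized CPM in the Ctrl + Saline and at 14.9, 14.2, 19.8, 11.5 and 12.5 in the Kdm7a-shRNA + Saline mice. The groups did not overlap, although the lowest knockdown mouse lay close to the highest control mouse. Flt1 rose 1.56-fold (log2 fold change 0.64, standard error 0.199, adjusted p = 0.0309). It passed in 5 of 8 fits with a mouse left out, and not without Kdm7a-shRNA + Saline replicate 3 (0.51, adjusted p = 0.077), Ctrl + Saline replicate 2 (0.58, adjusted p = 0.119) or Ctrl + Saline replicate 3 (0.54, adjusted p = 0.146). After the correction it was 0.57 (adjusted p = 0.0612), and among known genes alone without a correction 0.56 (adjusted p = 0.0657).

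Kdr (ENSMUSG00000062960, chromosome 5, 75932827 to 75978458, minus strand) encodes VEGF receptor 2, the main signalling receptor of endothelial cells. With 8 to 19 counts per mouse, it had the fewest of the 10. Normalized CPM was 2.51, 1.17 and 1.32 in the Ctrl + Saline mice and 1.15, 1.04, 1.54, 0.9 and 0.905 in the Kdm7a-shRNA + Saline mice. The groups overlapped and the control mean was carried by replicate 1. The fitted log2 difference was -0.58 (standard error 0.318, adjusted p = 0.213), which did not pass.

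Nos3 (ENSMUSG00000028978, chromosome 5, 24364810 to 24384474, plus strand) encodes endothelial nitric oxide synthase, which acts downstream of the VEGF receptors. Its normalized CPM was 2.78, 3.03 and 3.05 in the Ctrl + Saline and 4.25, 5.65, 8.06, 4.16 and 5.93 in the Kdm7a-shRNA + Saline mice. The control mice were close together, and every knockdown mouse was above them. Nos3 rose 1.89-fold (log2 fold change 0.92, standard error 0.279, adjusted p = 0.0271). It passed in 4 of 8 fits with a mouse left out, and not without Kdm7a-shRNA + Saline replicate 3 (0.76, adjusted p = 0.0671) or any 1 of the Ctrl + Saline mice (0.84 to 0.95, adjusted p = 0.077 to 0.0894). After the correction it was 0.54 (adjusted p = 0.212), and among known genes alone it did not pass without the correction either.

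Tek (ENSMUSG00000006386, chromosome 4, 94739289 to 94874976, plus strand) encodes the receptor of the angiopoietins, which steady the contact between endothelial cells and pericytes. It was 8.19, 5.95 and 5.83 normalized CPM in the Ctrl + Saline and 4.25, 4.26, 4.86, 3.82 and 6.43 in the Kdm7a-shRNA + Saline mice. The log2 fold change of -0.49 was opposite in sign to those of Flt1 and Nos3 and did not pass (standard error 0.208, adjusted p = 0.106). Only replicate 5 of the knockdown mice overlapped with the control mice, and without it the value was -0.63 (adjusted p = 0.0467). Scaled by library size alone, Tek was at -0.62 and passed (adjusted p = 0.0417).

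Cldn5 (ENSMUSG00000041378, chromosome 16, 18776847 to 18778262, plus strand) encodes claudin-5, the main tight junction protein of brain endothelium. Its normalized CPM was 24.8, 5.27 and 7.15 in the Ctrl + Saline mice and 31.9, 34.3, 34, 30 and 33.2 in the Kdm7a-shRNA + Saline mice. Replicates 2 and 3 of the control group, with 54 counts each, were lower than all other mice of the study, and replicate 1 was close to the Ctrl + Morphine mice. Cldn5 rose 2.66-fold (log2 fold change 1.41, standard error 0.379, adjusted p = 0.0154). Without Ctrl + Saline replicate 1 the log2 fold change was 2.36 (adjusted p = 0.000198), without replicate 2 it was 1.03 (adjusted p = 0.0782) and without replicate 3 it was 1.12 (adjusted p = 0.0993). With both replicates 2 and 3 left out it was 0.38 (adjusted p = 0.684), with 1 control mouse assumed to vary like the other groups. After the correction for GC content and length it was 0.98 (adjusted p = 0.0603).

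Pecam1 (ENSMUSG00000020717, chromosome 11, 106654217 to 106750628, minus strand) encodes the adhesion molecule CD31 of endothelial cells, which platelets and leukocytes also carry. It was 22.5, 19.5 and 14.3 normalized CPM in the Ctrl + Saline and 30.7, 28.8, 37.6, 20.1 and 32.9 in the Kdm7a-shRNA + Saline mice. Only replicate 4 of the knockdown mice overlapped with the control mice. Pecam1 rose 1.60-fold (log2 fold change 0.68, standard error 0.228, adjusted p = 0.0442). It passed in 2 of 8 fits with a mouse left out, those without Ctrl + Saline replicate 1 (0.78, adjusted p = 0.0472) and without Kdm7a-shRNA + Saline replicate 4 (0.79, adjusted p = 0.0149). The lowest of the other 6 was 0.49 without Ctrl + Saline replicate 3 (adjusted p = 0.224). After the correction it was 0.52 (adjusted p = 0.112), and among known genes alone it did not pass without the correction either.

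Pdgfrb (ENSMUSG00000024620, chromosome 18, 61045150 to 61085061, plus strand) encodes the receptor by which pericytes are recruited to vessels. Its normalized CPM was 12.6, 11.3 and 8.74 in the Ctrl + Saline and 10.3, 15.7, 18, 11.7 and 15.2 in the Kdm7a-shRNA + Saline mice, and the groups overlapped (log2 fold change 0.38, standard error 0.294, adjusted p = 0.382). Slc2a1 (ENSMUSG00000028645, chromosome 4, 119108711 to 119137983, plus strand) encodes the glucose transporter GLUT1 of the blood-brain barrier and of astrocytes. It was 68.9, 77.2 and 62.9 normalized CPM in the Ctrl + Saline and 82.1, 90, 94.9, 83 and 88.4 in the Kdm7a-shRNA + Saline mice. The groups did not overlap, but the difference was small and did not pass (log2 fold change 0.33, standard error 0.152, adjusted p = 0.13). After the correction Slc2a1 was at 0.08 (adjusted p = 0.72). In all, 5 of the 10 genes had groups that did not overlap, all higher in knockdown mice (Vegfb, Flt1, Nos3, Cldn5 and Slc2a1), against 11.1% of all tested genes that were higher without overlap and 23.7% without overlap in either direction.

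The count of 5 depended on single mice. It was 1 (Vegfb) without Ctrl + Saline replicate 2 and also without replicate 3, and 2 (Vegfb and Cldn5) without Kdm7a-shRNA + Saline replicate 3. Without both Ctrl + Saline replicates 2 and 3, which leaves 1 control mouse, Vegfb was at 0.48, Flt1 at 0.36, Nos3 at 0.99 and Pecam1 at 0.40. Among known genes alone the count of genes that passed was 2 (Vegfb and Cldn5) before and 0 after the correction for GC content and length.

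**Figure D2:**
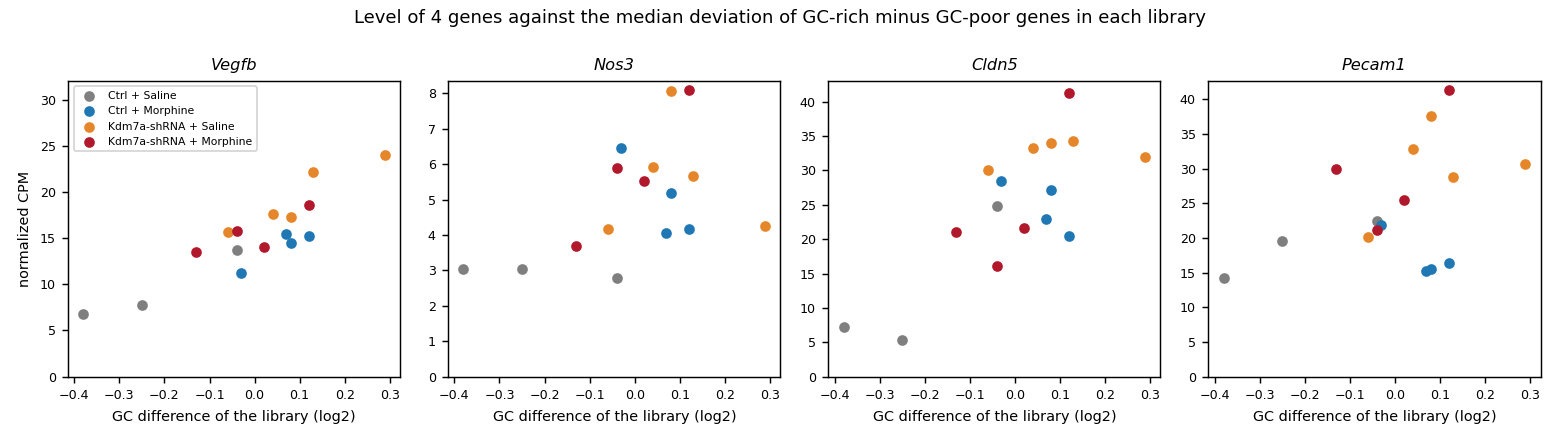
Normalized CPM of Vegfb, Nos3, Cldn5 and Pecam1 (vertical axis, from 0) against the GC difference of each library on the log2 scale (horizontal axis), with 1 point per mouse coloured by group. The 2 libraries at -0.38 and -0.25 are Ctrl + Saline replicates 3 and 2, which had the lowest levels of Vegfb (6.76 and 7.71) and Cldn5 (7.15 and 5.27).

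The same genes were then compared between knockdown and control mice that had received morphine. Here 1 of the 10 genes passed, Pecam1, which was higher in knockdown mice, against 7.69% of all tested genes that passed, 2.86% as higher and 4.83% as lower. The median log2 fold change of the 10 genes was 0.19, and that of all tested genes was -0.0045. Pecam1 was at 15.6, 15.3, 21.9 and 16.4 normalized CPM in Ctrl + Morphine replicates 1 to 4 and at 29.9, 25.5, 41.3 and 21.1 in Kdm7a-shRNA + Morphine replicates 1 to 4. Replicate 3 of the control group reached just above replicate 4 of the knockdown group, and the others did not overlap. None of the 10 genes (0 of 10) had groups without any overlap, against 13.9% of all tested genes. Pecam1 rose 1.71-fold (log2 fold change 0.78, standard error 0.217, adjusted p = 0.0323).

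With each of the 8 mice left out, Pecam1 stayed between 0.56 and 0.91 on the log2 scale and passed in 3 fits. Its adjusted p-value was 0.137 without Kdm7a-shRNA + Morphine replicate 3, 0.0663 without replicate 1 of that group, and 0.0838, 0.0669 and 0.0942 without Ctrl + Morphine replicates 1, 2 and 4. In the fit of the 2 compared groups alone it was 0.0615. After the correction for GC content and length the log2 fold change was 0.71 (adjusted p = 0.0619), close to the 0.73 (adjusted p = 0.061) of known genes without the correction.

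Of the ligands and receptors, Vegfb was 14.5, 15.4, 11.2 and 15.2 normalized CPM in the Ctrl + Morphine and 13.5, 14, 18.6 and 15.8 in the Kdm7a-shRNA + Morphine mice. These values lay in the same range (log2 fold change 0.14, standard error 0.203, adjusted p = 0.711). Vegfa was 2, 4.59, 3.77 and 5.14 in the first group and 2.15, 6.23, 3.18 and 5.23 in the second (log2 fold change 0.12, standard error 0.365, adjusted p = 0.873). Flt1 was 11.1, 8.75, 11.4 and 10.2 against 11.6, 7.67, 10.8 and 8.19, also in the same range (log2 fold change -0.11, standard error 0.191, adjusted p = 0.766). Kdr ran from 1.34 to 1.92 in control and from 1.08 to 1.63 in knockdown mice (fitted log2 difference -0.20, standard error 0.301, adjusted p = 0.734).

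Of the junction and vessel wall genes, Cldn5 was 27.1, 22.9, 28.5 and 20.5 normalized CPM in the Ctrl + Morphine and 21.1, 21.6, 41.2 and 16.1 in the Kdm7a-shRNA + Morphine mice. Replicate 3 of the knockdown group was above all other mice of the study and the other 3 lay in the lower part of the control range or under it, so the mean hardly differed (log2 fold change 0.03, standard error 0.341, adjusted p = 0.976). Nos3 was 5.19, 4.05, 6.45 and 4.17 in control and 3.68, 5.52, 8.08 and 5.9 in knockdown mice (log2 fold change 0.24, standard error 0.251, adjusted p = 0.588). Tek was 3.79, 4.48, 5.36 and 5.78 in control and 5.52, 6.95, 6.44 and 5.5 in knockdown mice, and did not pass (log2 fold change 0.34, standard error 0.204, adjusted p = 0.32).

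Pdgfrb was at 9.98, 8.22, 16.3 and 7.92 normalized CPM in the Ctrl + Morphine and at 17.5, 13.8, 25.5 and 9.26 in the Kdm7a-shRNA + Morphine mice. In both groups replicate 3 was the highest. The fitted log2 difference was 0.65 (standard error 0.281, adjusted p = 0.151). Slc2a1 was at 75.6, 70.5, 74.3 and 65.6 in control and at 84.6, 102, 135 and 73.7 in knockdown mice. Replicate 4 of the knockdown group lay within the control range and the other 3 above it, and Slc2a1 fell just short of the threshold (log2 fold change 0.47, standard error 0.146, adjusted p = 0.0517). Without Kdm7a-shRNA + Morphine replicate 4, Pdgfrb (0.85, adjusted p = 0.0429) and Slc2a1 (0.59, adjusted p = 0.0121) passed as well.

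**Figure D3:**
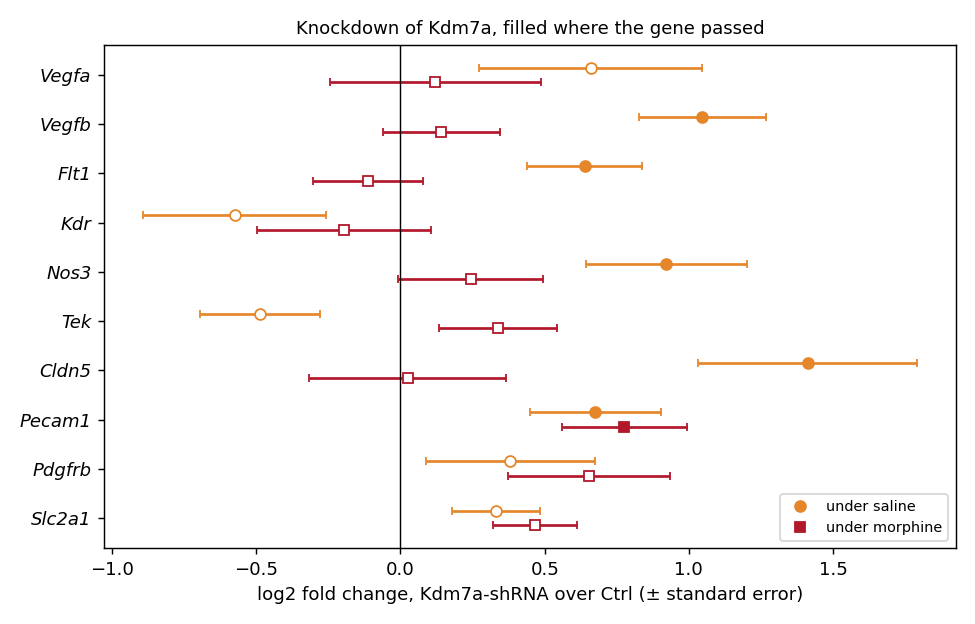
Log2 fold change of Kdm7a-shRNA over Ctrl mice (horizontal axis) for each of the 10 genes (vertical axis) under saline (circles) and under morphine (squares), with standard errors as bars and filled marks for genes that passed. The 5 filled circles run from 0.64 for Flt1 to 1.41 for Cldn5, and the 1 filled square is Pecam1 at 0.78.

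Kdm7a-shRNA + Morphine replicate 3 had the highest level of the 16 mice for Nos3, Cldn5, Pecam1, Pdgfrb and Slc2a1. Vegfa (rank 11) and Flt1 (rank 10) were not high in this mouse.

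The mean of the knockdown effects under saline and under morphine was tested in the same fit. Pecam1 (log2 fold change 0.73, standard error 0.158, adjusted p = 0.00246), Vegfb (0.59, standard error 0.149, adjusted p = 0.00662) and Cldn5 (0.72, standard error 0.253, adjusted p = 0.0418) passed, 3 of 10 genes, against 7.68% of all tested genes that passed as higher and 17.6% in either direction. Slc2a1 (0.40, standard error 0.105, adjusted p = 0.00905) and Nos3 (0.58, standard error 0.187, adjusted p = 0.0274) were under the fold threshold. Pecam1 passed in all 16 fits that left out 1 mouse, with values from 0.62 to 0.79, and after the correction for GC content and length (0.62, adjusted p = 0.00891). Vegfb passed in 10 of the 16 fits that left out 1 mouse, with values from 0.5 to 0.77. Cldn5 passed in 5 of these 16 fits, with values from 0.53 to 1.2. After the correction Vegfb was at 0.33 (adjusted p = 0.0466) and Cldn5 at 0.46 (adjusted p = 0.149). The count of 3 fell to 1, Pecam1, without Ctrl + Saline replicate 2, without Ctrl + Saline replicate 3, without Kdm7a-shRNA + Saline replicate 2 and without Kdm7a-shRNA + Morphine replicate 3. Without both Ctrl + Saline replicates 2 and 3, which leaves 1 mouse in that group, Pecam1 was at 0.59.

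Whether knockdown acted differently under the 2 treatments was tested by the interaction, the effect under morphine minus that under saline. None of the 10 genes passed (0 of 10) in edgeR's quasi-likelihood test, against 0.085% of all tested genes, and 4 had an unadjusted p-value under 0.05, against 10.7% of all tested genes. These were Cldn5 (-1.39, standard error 0.506, adjusted p = 0.298), Vegfb (-0.91, standard error 0.298, adjusted p = 0.247), Flt1 (-0.75, standard error 0.275, adjusted p = 0.301) and Tek (0.82, standard error 0.292, adjusted p = 0.286). Genes that passed under saline and not under morphine are therefore not shown to respond differently. Without Ctrl + Saline replicate 1, which leaves the low replicates 2 and 3, Cldn5 (-2.33, adjusted p = 0.00387) and Vegfb (-1.22, adjusted p = 0.0266) passed. DESeq2 and the fit with the replicate number as a block gave 0 of 10 as well.

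Morphine in control mice was examined by setting Ctrl + Morphine against Ctrl + Saline mice. None of the 10 genes passed (0 of 10) in edgeR's quasi-likelihood test, nor did any other tested gene (0%), and DESeq2 and edgeR's exact test also gave 0 of 10. An unadjusted p-value under 0.05 was found for 3 of the 10 and for 11.7% of all tested genes. These were Nos3 (log2 fold change 0.74, standard error 0.29, adjusted p = 0.313), Vegfb (0.59, standard error 0.228, adjusted p = 0.308) and Cldn5 (1.01, standard error 0.389, adjusted p = 0.301), the 3 genes among the GC-richest 20%. Every Ctrl + Morphine mouse was above every Ctrl + Saline mouse for Nos3, and every one was below for Tek (-0.45, standard error 0.218, adjusted p = 0.43), against 12.4% of tested genes without overlap. Without Ctrl + Saline replicate 1, Cldn5 (1.97, adjusted p = 0.00391) and Vegfb (0.92, adjusted p = 0.0467) passed. Without replicates 2 and 3 together Cldn5 was at -0.02. After the correction for GC content and length Cldn5 was at 0.78 (adjusted p = 0.406) and Vegfb at 0.30 (adjusted p = 0.544). Vegfa, Flt1, Kdr, Pecam1, Pdgfrb and Slc2a1 had log2 fold changes between -0.12 and 0.28 and adjusted p-values from 0.82 to 0.998.

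In knockdown mice, morphine was examined by setting Kdm7a-shRNA + Morphine against Kdm7a-shRNA + Saline mice. None of the 10 genes passed (0 of 10) in edgeR's quasi-likelihood test, against 0.00531% of all tested genes. DESeq2 and the exact test also gave 0 of 10, where 26 and 15 of all 18826 tested genes passed. Flt1 had the 1 unadjusted p-value under 0.05, against 7.02% of all tested genes (log2 fold change -0.60, standard error 0.181, adjusted p = 0.561). Its mean ± SD was 14.6 ± 3.22 in the 5 saline mice and 9.58 ± 1.95 in the 4 morphine mice, and the groups overlapped by a narrow margin, from 11.5 to 11.6.

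Across the 4 groups, the order of mean levels differed between the genes. Pecam1 (17.3 ± 3.12 in Ctrl + Morphine, 18.8 ± 4.13 in Ctrl + Saline, 29.5 ± 8.69 in Kdm7a-shRNA + Morphine and 30 ± 6.41 in Kdm7a-shRNA + Saline, SD) and Slc2a1 (69.7 ± 7.17 in Ctrl + Saline, 71.5 ± 4.48 in Ctrl + Morphine, 87.7 ± 5.26 in Kdm7a-shRNA + Saline and 98.7 ± 26.7 in Kdm7a-shRNA + Morphine, SD) had both control groups below both knockdown groups. Neighbouring groups overlapped in this order for Pecam1, while for Slc2a1 the Ctrl + Morphine and Kdm7a-shRNA + Saline groups did not overlap. Vegfb, Cldn5 and Vegfa were lowest in Ctrl + Saline and highest in Kdm7a-shRNA + Saline mice with the morphine groups in between, and all neighbours in the order overlapped. Pdgfrb had the order of Slc2a1 with the control groups exchanged, and Nos3 was lowest in Ctrl + Saline mice, without overlap with the Ctrl + Morphine mice next in its order. Flt1 stood apart in having 3 groups close together (9.36 to 10.4) and the Kdm7a-shRNA + Saline group above them without overlap with its neighbour in the order, Ctrl + Morphine. Kdr and Tek were the 2 genes with their lowest mean in Kdm7a-shRNA + Saline and their highest in Ctrl + Saline mice.

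The rest of the VEGF pathway was read from gene lists that include the 10. Of the VEGF ligands and receptors, 9 of 10 were tested (Flt4 was not). Under saline 2 were higher in knockdown mice (Vegfb and Flt1) and 1 was lower, Nrp2 (log2 fold change -0.84, standard error 0.219, adjusted p = 0.0133), a co-receptor that also binds semaphorins, against 7.43% of all tested genes higher and 9.31% lower. Their median was 0.21, beside 0.015 for all tested genes. Nrp2 was also the 1 gene of this list that passed after the correction for GC content and length. Under morphine 0 of the 9 passed, against 7.69% of all tested genes, and their median was -0.08.

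Of 41 genes that transmit the signal of the VEGF receptors, 40 were tested. Under saline 8 were higher and 1 was lower, with a median of 0.18, against 7.43% of all tested genes higher and 9.31% lower. Akt2, a kinase of cell survival and glucose uptake, had the smallest adjusted p-value of those that rose (0.61, standard error 0.138, adjusted p = 0.00594). The lower gene was Prkca, a protein kinase C (-0.64, standard error 0.186, adjusted p = 0.023). After the correction 2 were higher and 2 lower, Prkca among them and Akt2 not, and the median was -0.12. The fit without Ctrl + Saline replicates 2 and 3 left 1 control mouse, too few for its counts to be read beside these. Under morphine 1 of the 40 passed, against 7.69% of all tested genes, and the median was -0.02. This was Akt2 (0.62, standard error 0.131, adjusted p = 0.00912), which also passed after the correction. These kinases are made in neurons and glia as well as in vessels.

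Of the angiopoietin and Tie genes 4 of 6 were tested and 0 passed under either treatment, with medians of -0.18 under saline and 0.36 under morphine. Of 20 genes of endothelial Notch, BMP and Wnt signalling 15 were tested. Hey1, a target of Notch (1.03, standard error 0.222, adjusted p = 0.00469), and Acvrl1, the BMP receptor ALK1 (0.97, standard error 0.292, adjusted p = 0.0262), were higher under saline. Notch1, the receptor itself, was higher under morphine (0.91, standard error 0.246, adjusted p = 0.0276). The list's median was 0.31 under saline and 0.18 under morphine. These were 2 of 15 genes under saline and 1 of 15 under morphine, beside 16.7% and 7.69% of all tested genes. Hey1 and Notch1 also passed after the correction, and Acvrl1 did not.

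Endothelial identity was read from a list of 30 markers, of which 29 were tested and 28 are not among the 10 genes. Under saline 4 of 29 passed, all higher, against 7.43% of all tested genes higher and 16.7% in either direction. They were Cldn5 and Pecam1, already described, and Sox18, an endothelial transcription factor (2.17, standard error 0.584, adjusted p = 0.0157), and Robo4, a receptor that steadies vessels (1.44, standard error 0.477, adjusted p = 0.0414), which is named here after its value was seen. Sox18 had only 1 to 15 counts per mouse. The median was 0.43, beside 0.015 for all tested genes, and 23 of 29 were above 0. After the correction, which was applied among known genes alone, 0 passed and the median was 0.25. Without Ctrl + Saline replicates 2 and 3 together the median was 0.39. Under morphine 3 were higher, Pecam1, Esam, a junction adhesion molecule (0.67, standard error 0.15, adjusted p = 0.0125), and Itm2a (0.66, standard error 0.164, adjusted p = 0.0197), the median was 0.40, and 28 of 29 were above 0. These 3 of 29 stand beside 2.86% of all tested genes higher and 7.69% in either direction. After the correction, which was applied among known genes alone, 0 passed and the median was 0.32. The summed level of the 28 other markers ran from 575 to 674 normalized CPM in Ctrl + Saline, from 540 to 664 in Ctrl + Morphine, from 602 to 969 in Kdm7a-shRNA + Saline and from 609 to 1050 in Kdm7a-shRNA + Morphine mice, so that the groups overlapped.

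Of 18 pericyte markers, 14 were tested and 0 passed under saline (median 0.09) or under morphine (median 0.56). The summed level of the 17 without Pdgfrb ran from 80.1 to 100 normalized CPM in Ctrl + Saline, from 71.8 to 84.7 in Ctrl + Morphine, from 83.4 to 115 in Kdm7a-shRNA + Saline and from 86.1 to 136 in Kdm7a-shRNA + Morphine mice. The morphine groups did not overlap in this sum, with a narrow gap from 84.7 to 86.1. In this comparison 13.9% of all tested genes had groups that did not overlap. Rgs5 and Vtn, with 4111 and 3650 counts over all mice, had the most counts of the 17. Of 10 vascular smooth muscle genes 8 were tested and 0 passed in either comparison (medians 0.32 and 0.54). Of 12 fibroblast and meningeal genes 1 passed under saline and 0 under morphine (medians 0.45 and 0.36). The gene that passed was the collagen Col1a1 (1.39, standard error 0.44, adjusted p = 0.0338), which had only 3 to 31 counts per mouse. Beside the counts of these lists, 16.7% of all tested genes passed under saline and 7.69% under morphine. After the correction Col1a1 did not pass, and 1 pericyte marker was lower under saline.

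Transporters of the blood-brain barrier were a list of 20 with Slc2a1 among them. Under saline 4 were higher, led by Tfrc, the transferrin receptor (1.13, standard error 0.159, adjusted p = 0.000342), and Slc3a2, the heavy chain of amino acid transporters (0.83, standard error 0.164, adjusted p = 0.00287). The median was 0.34. Of all tested genes 7.43% passed as higher and 16.7% in either direction under saline, and 2.86% and 7.69% under morphine. Under morphine Tfrc was higher again (0.85, standard error 0.148, adjusted p = 0.00408), while Lrp8, an apolipoprotein E receptor that neurons also make, was lower (-0.70, standard error 0.201, adjusted p = 0.0371), and the median was 0.35. After the correction Tfrc was still among the genes that passed under both treatments, as was Lrp8 under morphine, while Slc3a2 did not pass. Tfrc also passed under saline without Ctrl + Saline replicates 2 and 3. Neurons and dividing glia also make Tfrc.

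Vegfa and Slc2a1 are induced in low oxygen, so 30 genes of the hypoxia-inducible factors and their targets were examined. Of 28 tested, 1 was higher and 2 were lower under saline, against 16.7% of all tested genes in either direction. Hk2, a hexokinase, rose (1.15, standard error 0.386, adjusted p = 0.0438), and Bnip3l, a mitophagy receptor (-0.88, standard error 0.136, adjusted p = 0.000647), and Hif1an, which inhibits the factor (-0.72, standard error 0.148, adjusted p = 0.00366), fell. Under morphine 1 was lower, P4ha2, a collagen prolyl hydroxylase (-0.81, standard error 0.243, adjusted p = 0.0441), against 7.69% of all tested genes. The medians were 0.03 and 0.01, next to those of all tested genes. After the correction 0 were higher and 3 lower under saline, Bnip3l and Hif1an among them and Hk2 not, and under morphine Hif1an was lower and P4ha2 did not pass.

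Markers of other cells moved in the same comparisons. In the fit of all 16 mice and all tested genes, the background share passing upward was 7.43% under saline and 2.86% under morphine. The downward share was 9.31% under saline and 4.83% under morphine. Of 8 microglial markers 7 passed as higher under saline and 5 under morphine, with medians of 1.20 and 1.22. Their summed level ran from 1510 to 2050 normalized CPM in Ctrl + Saline, from 739 to 1680 in Ctrl + Morphine, from 2390 to 6670 in Kdm7a-shRNA + Saline and from 1510 to 5940 in Kdm7a-shRNA + Morphine mice. After the correction 2 of 8 passed under saline and 0 under morphine, with medians of 0.98 and 1.10. Among known genes alone without a correction 3 and 0 passed, with medians of 1.12 and 1.16. In the fit of all tested genes without Ctrl + Saline replicates 2 and 3, which leaves 1 control mouse, the median under saline was 1.09. Red blood cell genes went the other way under saline, with 5 of 5 tested genes lower (median -1.34), among them Hbb-bt (-1.51, adjusted p = 0.0045) and Alas2 (-1.79, adjusted p = 0.00441), where the globin genes come in near-identical pairs whose reads may be shared. Their summed level was 737 to 1570 in Ctrl + Saline, 380 to 682 in Ctrl + Morphine, 381 to 575 in Kdm7a-shRNA + Saline and 322 to 1170 in Kdm7a-shRNA + Morphine mice, without overlap between the saline groups. Of all tested genes 23.7% had saline groups that did not overlap. All 5 red blood cell genes were also lower under saline after the correction (median -1.71). Of 8 astrocyte markers 2, Aldh1l1 and Gfap, were higher under saline (median 0.45) and 0 passed under morphine (median 0.39). Of 8 oligodendrocyte markers 0 passed (medians 0.44 and 0.32), and of 8 neuronal markers 1, Gad2, was lower under saline (medians -0.21 and -0.04). After the correction Gad2 passed, and Aldh1l1 and Gfap did not. The part of these shifts in the levels of the 10 genes was not tested.

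**Figure D4:**
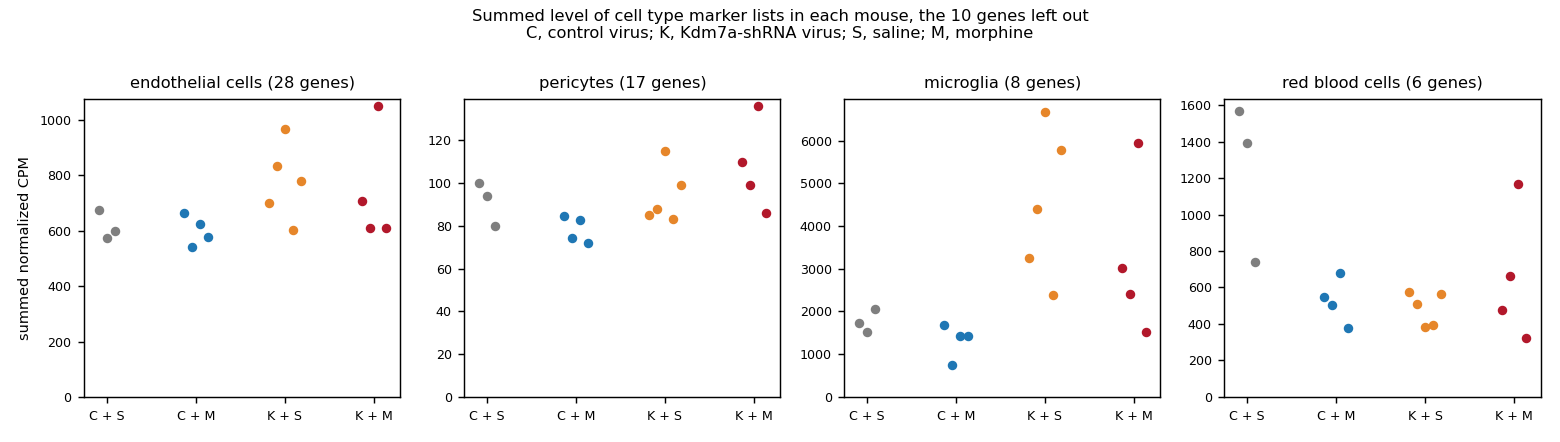
Summed normalized CPM (vertical axis, from 0) of marker genes of endothelial cells, pericytes, microglia and red blood cells, without the 10 genes, in each mouse by group (horizontal axis); C is control virus, K Kdm7a-shRNA virus, S saline and M morphine. The 5 Kdm7a-shRNA + Saline mice lie above the 3 Ctrl + Saline mice for microglia (2390 to 6670 against 1510 to 2050) and below them for red blood cells (381 to 575 against 737 to 1570).

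For 4 of the genes, the known genes with the most similar course over the 16 mice were sought among 14443 by the root mean square difference of centred log2 CPM. Those nearest to Cldn5, whose own SD was 0.795, were Clta (0.224), Tpt1 (0.262) and Emc6 (0.274). Those nearest to Slc2a1 (SD 0.272) were Rpl10 (0.118), Rpl10-ps3 (0.123) and Ramp2 (0.125), and Rpl10-ps3 is a near copy of Rpl10 whose reads may be shared with it. Those nearest to Pdgfrb (SD 0.467) were Ctsk (0.181), Pltp (0.183) and Glmp (0.229). Those nearest to Vegfa (SD 0.538) were Lor (0.328), Ubxn2a (0.355) and Prcc (0.358), the poorest matches of the 4.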

How the data were processed

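The authors sequenced cDNA-PCR libraries of mPFC RNA on the Nanopore platform, removed reads under quality 7 or 500 bases and ribosomal reads, and clustered full-length reads on the mouse genome mm10 with minimap2 and Pinfish. The submitters' processing notes also name edgeR 3.8.6. The deposited table holds raw counts per gene for 16 mice, with 19415 known genes and 7210 assembled loci, and beside them CPM that the authors made by dividing each count by its mouse's total (largest difference from the counts 4.99e-06 CPM). Only counts were tested. Counting keeps reads of overlapping and near-identical genes uncertain, and whether strand was used is not given in the sources used here.

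Libraries held 6596991 to 12418112 counts. Within groups, log2 CPM correlated at 0.951 to 0.981, and no pair of libraries agreed within sampling noise (chi-square per degree of freedom 8.33 to 51.2). Entries with low counts were removed with filterByExpr, which left 18826. One fit of edgeR 4.0.16 in R 4.3.3 held all 16 mice with 4 group terms and TMM factors, and the quasi-likelihood test was applied to 6 comparisons, with Benjamini-Hochberg adjustment over all tested entries. The fit's common biological coefficient of variation was 0.215. P-values measure the spread between these libraries.

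Alternatives were DESeq2 1.42.0, edgeR's exact test, other scalings and filters, known genes alone, the compared groups alone, a replicate block and each mouse left out. Deviations of same-numbered mice correlated at 0.11 to 0.207 in all 3 pairs of Ctrl + Saline and Ctrl + Morphine mice. Ctrl + Saline replicate 3 and Ctrl + Morphine replicate 4, with unlike numbers, were at 0.133, so these values do not show that the numbers pair the groups. The block was fitted over all mice and is not a paired test of these groups. With it no gene passed for morphine in control mice, as without it. Each other combination of groups held at least 1 same-number pair under 0.1. Chosen after seeing the data were the fit without Ctrl + Saline replicates 2 and 3 and a correction that removes each library's median deviation in 20 bins of GC content and then 20 bins of length of the longest GENCODE transcript, available for 98% of 14444 known tested genes. The code was tested on simulated counts. Positions are those of GRCm38 with GENCODE annotation, and promoter windows those of RefSeq on GRCm38.p6.

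The 10 genes were named always. From each of 15 lists, the leading genes by adjusted p-value among those that passed, at most 2 in each direction, were named per knockdown comparison, and for Vegfa, Cldn5, Slc2a1 and Pdgfrb the 3 known genes nearest in course, on log2 CPM with a prior count of 2. Some genes that this rule names are not reported here. The members and lists were chosen with earlier results of these data known.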

Additional observations from a re-analysis of the deposited data

Results flagged for a closer look

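In Ctrl + Morphine mice, Pecam1 was at 21.9 normalized CPM in replicate 3 and between 15.3 and 16.4 in the other 3. The gap between replicate 3 and the nearest other mouse was 0.833 of the whole range of the group. This was the 1 gap past Dixon's limit among 30 sets of values checked, the 10 genes in the 3 groups of 4 or 5 mice. A check of this kind passes its limit by chance in about 5% of groups. Without this mouse, Pecam1 under morphine was at 0.91 on the log2 scale (adjusted p = 0.0389 in edgeR's quasi-likelihood test).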

How the results depend on the processing

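Of the log2 fold changes of the 10 genes recomputed in 6 comparisons under the alternatives, 1173 kept their direction and side of the threshold, 68 no longer passed, 20 passed newly and 33 turned direction. In the main fit 5, 1 and 3 of the 10 genes passed for knockdown under saline, under morphine and averaged, and 0 in the other comparisons. The 68 can only have come from those few results, while most of the 1173 did not pass in the main fit either. With 1 mouse left out, the count of the 10 genes that passed ran from 1 to 5 for knockdown under saline, from 0 to 3 for knockdown under morphine, from 1 to 4 for both averaged, from 0 to 2 for morphine in control mice and for the interaction, and was 0 for morphine in knockdown mice. Averaged over treatments it was 1 with library size only, with at least 10 counts in every mouse, with known genes only and with GC content and length corrected. It was 5 by adjusted p alone. Under morphine it was 0 with the compared groups alone, known genes only or the correction. Under saline it was 2 with known genes only and 0 with the correction. The cause was not tested.

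With library size only, Cldn5 for knockdown under morphine was -0.09 and Pecam1 for morphine in knockdown mice 0.01. With known genes only, Cldn5 for knockdown under morphine was -0.02, and with the correction -0.05, where Slc2a1 for morphine in control mice was -0.10. Without Ctrl + Saline replicates 2 and 3, morphine in control mice gave Flt1 -0.13 and Cldn5 -0.02. With 1 mouse left out, knockdown under morphine ran from -0.13 to 0.32 for Vegfa and from -0.33 to 0.19 for Cldn5, and morphine in control mice from -0.32 to 0.07 for Pdgfrb, from -0.05 to 0.12 for Slc2a1 and from -0.22 to 0.36 for Kdr. Morphine in knockdown mice ran from -0.51 to 0.01 for Vegfa, from -0.15 to 0.23 for Nos3, from -0.24 to 0.11 for Pecam1, from -0.07 to 0.42 for Pdgfrb and from -0.02 to 0.29 for Slc2a1. The interaction ran from -0.11 to 0.29 for Pecam1, from -0.03 to 0.55 for Pdgfrb and from -0.05 to 0.25 for Slc2a1.

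The labels tie a replicate number to no litter, batch or day. Over 21 pairs of mice with the same number in different groups, deviations from the group means correlated at -0.102 to 0.395 (median 0.0139), and over 74 other pairs at -0.474 to 0.318. All 3 same-number pairs were above 0.1 for Ctrl + Saline and Ctrl + Morphine mice, and not in the other comparisons, although 2 of the knockdown mice's pairs were at 0.358 and 0.395. With the replicate number as a block, the counts of the 10 genes were 5, 1, 3, 0, 0 and 0, as without it, while Pdgfrb for morphine in control mice turned to 0.03 and Pecam1 for morphine in knockdown mice to 0.01.

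Over all tested genes, 3151 passed for knockdown under saline, 1448 under morphine, 3316 averaged, 0 for morphine in control mice, 1 in knockdown mice and 16 for the interaction. With known genes only, 1419, 446 and 1456 passed for the knockdown comparisons and 2 for morphine in knockdown mice. With at least 10 counts in every mouse they were 1852, 697, 1525 and 2. With the correction, 1234, 386 and 1346 passed for knockdown and 4 for the interaction. Without Ctrl + Saline replicates 2 and 3, 110 passed under saline, 1719 averaged, 1 for morphine in control mice and 0 for the interaction. By adjusted p alone 5190 passed averaged. With no filter 34 passed for the interaction. With the compared groups alone 685 passed for knockdown under morphine and 0 for morphine in knockdown mice, and with the block 0 for the latter and 6 for the interaction. By the exact test 165 and 15 passed for morphine in control and in knockdown mice, and by DESeq2 190 and 26, with 227 for the interaction. With 1 mouse left out, counts ran from 1424 to 3730 for knockdown under saline, 568 to 2066 under morphine, 2753 to 3738 averaged, 0 to 230 and 0 to 5 for morphine in control and in knockdown mice, and 0 to 266 for the interaction.

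Of the genes that passed, 44.4% were higher for knockdown under saline, 37.2% under morphine and 43.6% averaged. With library size only these shares were 29.2%, 24% and 30.6%, and the median of all genes moved to -0.12, -0.11 and -0.11. With known genes only they were 61.7%, 60.1% and 71.6%. Kdr had 8 to 19 and Vegfa 14 to 72 counts per mouse.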
